A study of Mus musculus with 2 samples.

Results

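The BAF complex of embryonic stem (ES) cells, often called esBAF, was examined through the transcripts of 10 of its subunits and their paralogues in uninduced iXist-ChrX-Dom mouse ES cells (mESCs). The genes were Smarca4, Smarca2, Smarcc1, Smarcc2, Smarcb1, Smarcd1, Smarce1, Arid1a, Arid1b and Actl6a, chosen by name. All 10 were found among the 22556 genes of the count table, and all 10 had at least 10 counts. The iXist-ChrX-Dom line is a female (XX) line of Dom/129S x Cast background, in which a TetOn promoter takes the place of the endogenous Xist promoter on the Dom/129S allele. The 2 libraries, replicate 1 and replicate 2, are polyadenylated RNA of untreated cells at 0 h, so no doxycycline had been given and both share the engineered allele. They form 1 group, and no comparison between conditions can be made. Both come from a single engineered line that is kept on mitotically inactive fibroblast feeders, which are removed by pre-plating. Nothing states that the replicates came from separate cultures, so the spread between them may be technical.

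BAF complexes are ATP-dependent chromatin remodellers of the SWI/SNF family. An ATPase, either BRG1 (Smarca4) or BRM (Smarca2), uses ATP to slide or eject nucleosomes, while the other subunits hold the complex together, couple it to the nucleosome and direct it to its targets. Many positions can be filled by alternative paralogues, and the choice changes with cell type. The ES cell form is described as containing BRG1, a scaffold of BAF155 (Smarcc1) rather than BAF170 (Smarcc2), BAF60A (Smarcd1), BAF53A (Actl6a) and an ARID1 subunit, whereas neurons replace BAF53A with BAF53B (Actl6b) and use other PHD finger subunits.

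Because levels of paralogues are compared below, the sequence that each pair shares sets how far fragments can be told apart. The longest stretch of identical coding sequence is shown for the 3 pairs among the members (GENCODE M21, GRCm38, coding strand). Capitals mark the identical run, and the 12 bases on each side are in lower case. For the ATPases the run was 20 bases long, at chr9:21635745-21635764 (plus strand) in Smarca4 and chr19:26630885-26630904 (plus strand) in Smarca2.
Smarca4: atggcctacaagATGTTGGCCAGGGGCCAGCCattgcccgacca
Smarca2: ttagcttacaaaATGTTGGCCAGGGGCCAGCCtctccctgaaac
For the scaffold pair it was 26 bases long, at chr9:110213569-110213594 (plus strand) in Smarcc1 and chr10:128485620-128485645 (plus strand) in Smarcc2.
Smarcc1: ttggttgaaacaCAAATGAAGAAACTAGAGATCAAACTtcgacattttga
Smarcc2: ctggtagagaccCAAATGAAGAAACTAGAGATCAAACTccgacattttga
For the ARID1 pair it was also 26 bases long, at chr4:133753222-133753247 (minus strand) in Arid1a and chr17:4995971-4995996 (plus strand) in Arid1b, within a stretch of repeated triplets.
Arid1a: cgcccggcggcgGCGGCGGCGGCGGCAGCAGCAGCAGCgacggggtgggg
Arid1b: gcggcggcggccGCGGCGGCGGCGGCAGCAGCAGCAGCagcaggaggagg

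No word of 50 bases was shared between the coding sequences of any of these 3 pairs. Of all 50-base words in the longest coding transcript of each member, none of those in Smarca2, Smarcc2, Smarcb1 and Arid1b occurred in a transcript of another gene. Smarce1 was the exception among the members, since 35.1% of its words also occurred in transcripts of 4 pseudogenes, and its values are therefore uncertain. For Smarcc1 that share was 3.26% and for Arid1a 1.02%, each from 1 pseudogene. The words of Actl6a and Smarcd1 found elsewhere, 20.8% and 9.70%, lay almost wholly in antisense neighbours, which the strand-specific counting separates. No member overlapped another gene of the same strand in the count table.

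The depth was 23716499 counts in replicate 1 and 20275749 in replicate 2, and a count of 0 allows up to 0.126 and 0.148 CPM (counts scaled to a library total of 1000000), for counting error only. Of 12 ES cell markers, 10 reached 10 TPM, with a summed level of 5507 and 4429 TPM, and their log2 ratio of replicate 2 over replicate 1 ran from −3.06 for Dppa5a, with 2915 and 298 counts, and −2.76 for Pou5f1, with 1129 and 142, to −0.15 for Klf4 and 0.05 for Zfp42. Utf1 had 9 and 4 counts. No count was assigned to Sox2 in either replicate, and its whole span is covered by Sox2ot, transcribed in the same direction, so that its fragments could not be assigned. The 10 fibroblast markers summed to 3.34 and 0.725 TPM, with Thy1 the highest at 32 and 2 counts and Col3a1 and Postn each at 0 and 1. The 10 neural precursor markers summed to 5.23 and 2.48 TPM, with Tubb3 the highest at 54 and 18 counts, Pax6 at 46 and 23, and Olig2 at 0 in both. Sox1 was at 0 as well, but like Sox2 it is covered whole by another gene of its strand. The part of other cells in the values below was not tested further.

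Levels are given as TPM, in which each count is divided by gene length and the library is then scaled to a sum of 1000000. The exonic length was used, because the length deposited with the counts includes introns, while the study describes intronic reads as very few in its mRNA data. The counting itself took in introns, so any intronic reads would raise these values. Their share was not tested. Among the 12249 genes with a mean of at least 1 TPM, the quartiles were 4.54 and 67.0 TPM and the median was 18.4 TPM. The members covered nearly the whole of this scale, from Actl6a at percentile 94.6 to Smarca2 at percentile 0.122, with a median percentile of 48.8. Smarca2 lay at the cut-off itself, with a mean of 1.01 TPM and 0.997 TPM in replicate 2. It dropped out of the ranked genes with the deposited length or without replicate 1, which left 9 members. Of the 10 members, 7 had a mean of at least 10 TPM. Their summed level was 668 TPM in replicate 1 and 664 TPM in replicate 2.

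**Figure D1:**
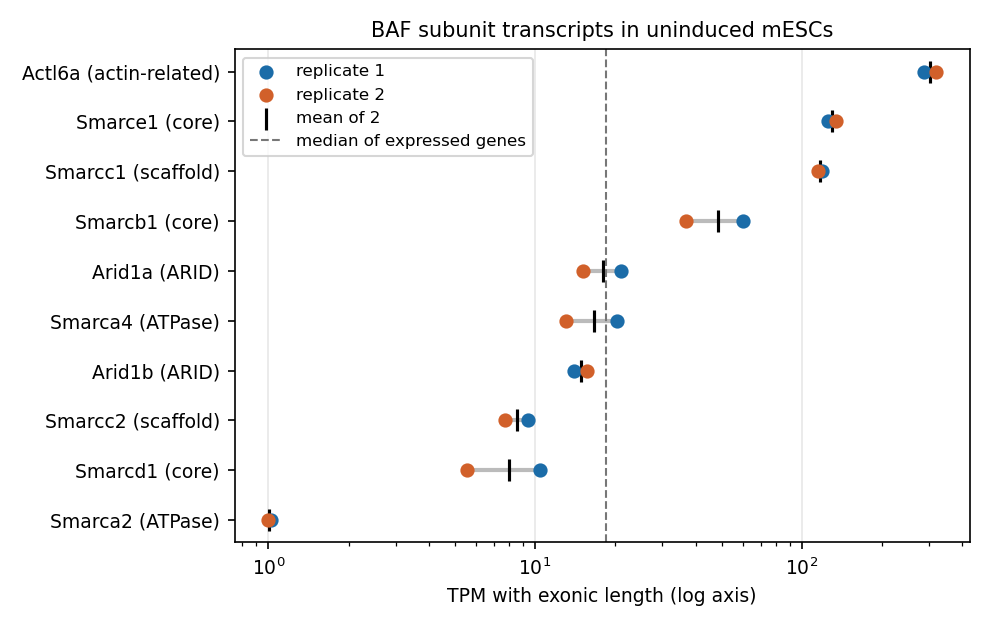
Levels of the 10 BAF members in uninduced mESCs, with 1 row per gene and TPM with exonic length on a log axis. Points are the 2 replicates, black ticks their mean, and the dashed line the median of expressed genes at 18.4 TPM, so that Actl6a, Smarce1, Smarcc1 and Smarcb1 lie above it in both replicates and Smarca2 stands apart at the bottom.

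The catalytic subunits differed widely in level. Smarca4 (chromosome 9, 21616168 to 21704230, plus strand, mm10), which encodes the ATPase BRG1, had 975 counts in replicate 1 and 503 in replicate 2. This gave 20.3 and 13.0 TPM, a mean of 16.7 ± 5.16 TPM (SD, n = 2), close to the median of expressed genes. Smarca2 (chromosome 19, 26605159 to 26778321, plus strand), which encodes the alternative ATPase BRM, had 56 and 44 counts. Its level was 1.02 and 0.997 TPM, a mean of 1.01 ± 0.0166 TPM (SD, n = 2). The lower Smarca4 replicate was thus above the higher Smarca2 replicate, and the ranges did not come near each other. The counts of Smarca2 were the lowest of all members, and its 95% counting interval for the log2 ratio between replicates ran from −0.73 to 0.47, the widest of the 10.

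The scaffold subunits also fell far apart. Smarcc1 (chromosome 9, 110132023 to 110240178, plus strand), which encodes BAF155, had 5785 and 4523 counts, the highest counts among the members in both libraries. Its level was 119 and 115 TPM, a mean of 117 ± 2.33 TPM (SD, n = 2). Smarcc2 (chromosome 10, 128459235 to 128490174, plus strand), which encodes BAF170, had 362 and 239 counts, or 9.37 and 7.69 TPM, a mean of 8.53 ± 1.19 TPM (SD, n = 2). The ranges of the pair did not overlap, and the spread within each gene was small beside the gap between them.

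The ARID1 subunits, large DNA-binding proteins that define the canonical BAF form, stood near each other. Arid1a (chromosome 4, 133679007 to 133753611, minus strand) had 1354 and 780 counts, which is 21.03 and 15.1 TPM with a mean of 18.0 ± 4.22 TPM (SD, n = 2). Arid1b (chromosome 17, 4995073 to 5347656, plus strand) had 1208 and 1081 counts, or 14.0 and 15.6 TPM, a mean of 14.8 ± 1.12 TPM (SD, n = 2). Arid1a was the higher in replicate 1 and Arid1b in replicate 2, so the 2 ranges overlapped. Arid1b also had the longest span of the members, 352584 bp, which is 30.8 times its exonic length.

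The remaining core subunits spread over a wide range. Smarcb1 (chromosome 10, 75896768 to 75921614, minus strand) encodes the core subunit SNF5, which contacts the nucleosome. It had 752 and 368 counts, or 60.3 and 36.7 TPM, a mean of 48.5 ± 16.7 TPM (SD, n = 2). Smarce1 (chromosome 11, 99209047 to 99231017, minus strand) encodes the HMG domain subunit BAF57. It had 2749 and 2377 counts, or 125 and 135 TPM, a mean of 130.0 ± 6.66 TPM (SD, n = 2), with the pseudogene copies as a limit on that value. Smarcd1 (chromosome 15, 99702286 to 99713995, plus strand) encodes BAF60A, which links the complex to transcription factors. It was the lowest of the members apart from Smarca2, with 260 and 111 counts, or 10.5 and 5.55 TPM, a mean of 8.01 ± 3.47 TPM (SD, n = 2).

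Actl6a (chromosome 3, 32708545 to 32726971, plus strand) was the highest member. It encodes the actin-related subunit BAF53A, which is shared with other chromatin complexes such as INO80 and TIP60. Its 4341 and 3880 counts gave 287 and 319 TPM, a mean of 303 ± 22.6 TPM (SD, n = 2). Both replicates were more than 2 times the next member.

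In order of mean TPM with exonic length, the members ran Actl6a, Smarce1, Smarcc1, Smarcb1, Arid1a, Smarca4, Arid1b, Smarcc2, Smarcd1 and Smarca2. A neighbour was counted as separated only where its lower replicate exceeded the higher replicate of the next gene. By that measure 3 neighbours were not separated, namely Arid1a and Smarca4, Smarca4 and Arid1b, and Smarcc2 and Smarcd1. Of the 45 pairs of members, 3 changed order between replicates, which were Smarca4 with Arid1b, Smarcc2 with Smarcd1, and Arid1a with Arid1b. With the deposited span length only 1 pair changed order, Smarcd1 with Arid1a, but the order itself differed. Arid1b then dropped to 2.51 ± 0.286 TPM and Smarca4 to 6.26 ± 1.70 TPM (SD, n = 2), below Smarcd1 at 11.7 ± 4.65 TPM and Smarcc2 at 7.36 ± 0.743 TPM. By the same measure, Smarcc2 and Smarca4 were not separated with span length, nor were Smarcb1 and Smarcd1, nor Smarcd1 and Arid1a. Actl6a, Smarce1, Smarcc1 and Smarcb1 were the highest 4 in this order, and Smarca2 the lowest, with either length.

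Transcripts were also added up by position in the complex. The ATPase pair summed to 21.4 and 14.0 TPM in the 2 replicates. The scaffold pair summed to 128 and 123 TPM, which is 5.995 and 8.76 times the ATPase sum. The ARID1 pair summed to 35.1 and 30.7 TPM, or 1.64 and 2.18 times the ATPase sum. The 3 SMARCD genes, Smarcd1 with Smarcd2 and Smarcd3, summed to 43.2 and 18.3 TPM, above the ARID1 sum in replicate 1 and below it in replicate 2. This was 2.02 and 1.31 times the ATPase sum, but 8.503 and 5.51 times with span length. The actin-related pair Actl6a and Actl6b summed to 288 and 319 TPM, and the PHD finger genes Dpf1, Dpf2, Dpf3 and Phf10 to 568 and 579 TPM, of which 556 and 569 TPM were Phf10, found mainly in the sister complex PBAF. These ratios compare transcripts per length, not protein.

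The paralogue choice was measured within each library as a log2 ratio after adding 0.5 counts to each gene, which removes library size. Smarca4 over Smarca2 was 4.31 in replicate 1 and 3.70 in replicate 2, a mean of 4.001 ± 0.43 (SD, n = 2), or 16.0-fold. Of the counts of the pair, 94.6% belonged to Smarca4 in replicate 1, with a 95% Wilson interval of 93.0 to 95.8%, and 92.0% did in replicate 2, with an interval of 89.4 to 94.0%. The 2 intervals overlapped, and the ratio was far from 0 in both libraries. With span length, which weighs the long Smarca2 gene down, the mean was 4.78, and with no length it was 3.80. In bulk RNA, fewer cells with a transcript and less of it per cell cannot be told apart, so the low level of Smarca2 could be spread over all cells or held by few.

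Smarcc1 over Smarcc2 was 3.66 and 3.904, a mean of 3.78 ± 0.17 (SD, n = 2), or 13.8-fold. Smarcc1 took 94.1% (93.5 to 94.7%) and 94.98% (94.3 to 95.6%) of the counts of this pair, and again the intervals overlapped. The choice of length mattered more here than the replicate, as the mean log2 ratio was 2.31 with span length and 4.12 with no length.

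Arid1a over Arid1b gave no clear order. It came to 0.58 in replicate 1 and to −0.05 in replicate 2 on the log2 scale, a mean of 0.27 ± 0.45 (SD, n = 2), smaller than its own spread. Arid1a took 52.8% of the counts of the pair in replicate 1 (50.9 to 54.8%) and 41.9% in replicate 2 (39.7 to 44.2%), and these intervals did not overlap. The ratio was 2.09 with span length and −0.15 with no length, so that its size and sign rested on the length used.

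The BAF60 position brought in genes outside the members. Smarcd1 was compared with Smarcd2 and Smarcd3, which encode BAF60B and BAF60C. Smarcd2 had 705 and 220 counts, or 31.0 and 12.02 TPM, and Smarcd3 had 26 and 9 counts, or 1.78 and 0.766 TPM. Smarcd1 over their sum was −1.65 and −1.20, a mean of −1.43 ± 0.31 on the log2 scale (SD, n = 2), so that Smarcd1 was the lower side in both libraries. It took 26.2% (23.6 to 29.1%) and 32.6% (27.9 to 37.8%) of the counts of the family. For the actin-related pair, Actl6b had 4 counts in replicate 1 and 1 in replicate 2, beside 4341 and 3880 for Actl6a.

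**Figure D2:**
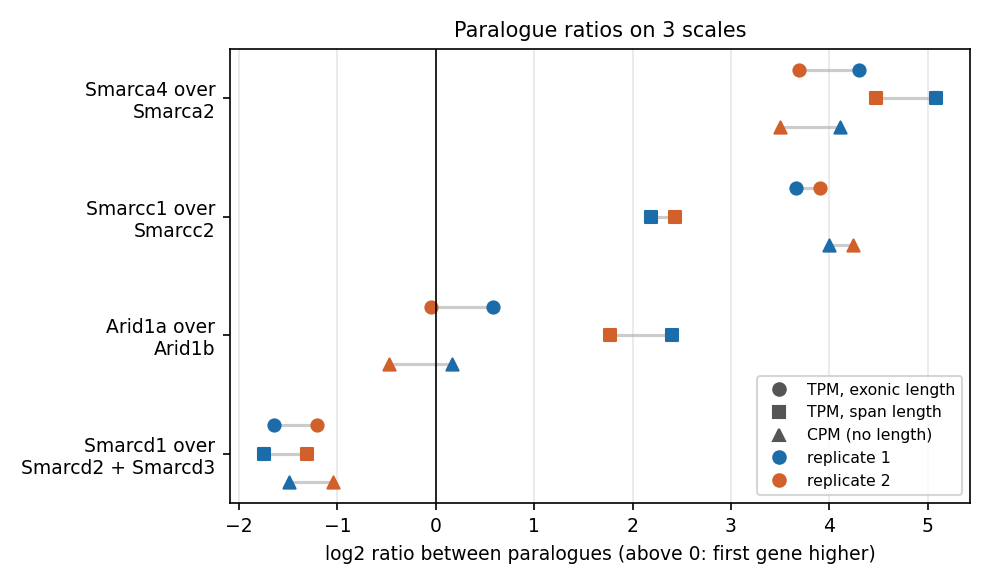
Log2 ratio between paralogues in each library, with circles for TPM with exonic length, squares for TPM with span length and triangles for CPM. Colours give the replicate and 0 means equal levels, so that both ratios of Smarca4 and Smarcc1 lie above 2 on every scale, Smarcd1 lies below 0, and Arid1a over Arid1b crosses 0 unless span length is used.

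The 2 libraries were then compared for each member, to ask whether its counts differed by more than sampling noise. This exact binomial test compares 2 libraries, not conditions, and its p-values were adjusted over all 14536 genes with at least 10 counts. Of the 10 members, 6 passed at an adjusted p of 0.05 (exact binomial test), and all 6 were lower in replicate 2. Across the genes tested, 60.8% passed and 45.7% passed with a lower level in replicate 2, so the share of members was near that of all genes. The median log2 ratio of replicate 2 over replicate 1 was −0.25 for the members and −0.31 for all genes tested.

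Smarcd1 differed most, with 10.96 CPM in replicate 1 and 5.47 in replicate 2, a log2 ratio of −0.998 (95% interval −1.34 to −0.68, adjusted p = 1.21e-09, exact binomial test). Smarcb1 followed at −0.80 (−0.99 to −0.62, adjusted p = 1.83e-18) and Smarca4 at −0.73 (−0.89 to −0.57, adjusted p = 4.69e-20), both by the same exact test. Arid1a stood at −0.57 (−0.70 to −0.44), Smarcc2 at −0.37 (−0.61 to −0.13) and Smarcc1 at −0.13 (−0.19 to −0.07). The 4 members that did not pass were Smarca2 at −0.12, Smarce1 at 0.02, Arid1b at 0.07 and Actl6a at 0.06. The interval of Arid1b, −0.05 to 0.19, did not overlap that of its paralogue Arid1a, while the wide interval of Smarca2, −0.73 to 0.47, overlapped that of Smarca4.

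These differences are relative to the library total, and other scalings shift every gene alike, by 0.26 with TMM factors and 0.31 with DESeq2 size factors. With TMM factors 8 members passed, 4 lower and 4 higher in replicate 2, while 57.7% of all genes tested passed. Of all genes called, 49.9% were then higher in replicate 2 in place of 24.9%. Smarca4, Smarcb1, Smarcd1 and Arid1a were lower with all 3 scalings, whereas Smarcc1 changed from −0.13 to 0.13 with TMM factors and 0.18 with DESeq2 size factors. Smarcc2 lost its call, at −0.12 with TMM factors (adjusted p = 0.432) and −0.06 with DESeq2 size factors (adjusted p = 0.703), in the same exact binomial test. Smarce1, Arid1b and Actl6a passed as higher in replicate 2 with both alternative scalings.

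GC content moved with these differences. Spearman's rho between a gene's log2 ratio and the GC content of its longest transcript was −0.65 for the 9241 genes on autosomes that had 50 or more counts per replicate, and −0.58 for the 10 members (a description across genes, which share both libraries). Smarce1 had the lowest GC content of the members, 39.1%, and Smarcd1 the highest, 57.2%. Arid1a at 56.7% and Smarca4 at 55.9% came next, above Smarcc2 at 54.3%, Arid1b at 52.9% and Smarca2 at 51.1%. Actl6a at 49.1%, Smarcb1 at 49.3% and Smarcc1 at 48.4% lay near the median of 49.3% for genes tested. In the 1141 autosomal genes between 54 and 58% GC, a bin that also holds 4 members, the median log2 ratio was −0.69.

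After the GC trend of all autosomal genes was taken off, Smarca4 stood at 0.00 and Smarcd1 at −0.24, and neither passed the test (adjusted p of 1 and 0.253, exact binomial test). Smarcb1 remained lower in replicate 2 at −0.40 (adjusted p = 3.64e-05, exact binomial test). Arid1b then had the largest difference of the members, 0.68 (adjusted p = 1.67e-27), followed by Actl6a at 0.45 (adjusted p = 2.75e-43), in the same exact test. Arid1a changed sign to 0.18 and Smarcc2 to 0.30, and Smarce1 changed to −0.23. With the trend removed 7 members passed, 2 lower and 5 higher in replicate 2, against 45.6% of all genes tested.

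**Figure D3:**
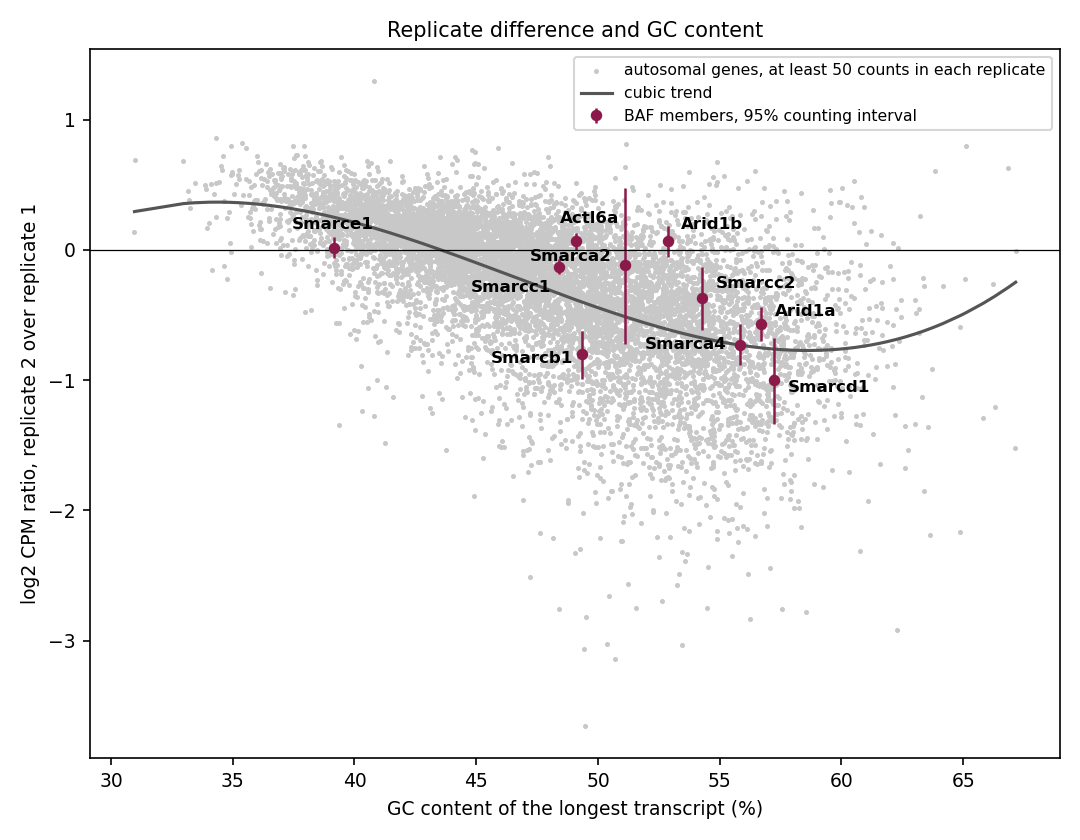
Log2 CPM ratio of replicate 2 over replicate 1 against the GC content of the longest transcript, for genes on autosomes with 50 or more counts per replicate (grey), their cubic trend (line) and the 10 members with 95% counting intervals. The intervals of Smarca4, Smarca2 and Smarcd1 include the trend. Smarcb1 and Smarce1 lie below it, and Smarcc1, Smarcc2, Arid1a, Arid1b and Actl6a lie above it.

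The other subunit genes of the family were taken from a list of 21, of which all were in the count table. A mean of at least 10 TPM was reached by 10, and 18 reached 1 TPM. With exonic length the highest was Phf10 at 556 and 569 TPM, a mean of 562 ± 9.57 TPM (SD, n = 2), above every member. This order depended on the length, since with span length Actb had a mean of 921 TPM and Phf10 299.6 TPM, and with no length Pbrm1 had 362 CPM and Phf10 288 CPM. PHF10 (BAF45A) is a PHD finger subunit of the BAF45 group that is found mainly in PBAF, and 1089 bp of its span overlap another gene of the same strand. Actb, whose product is a subunit as well as cytoplasmic actin, stood at 334 ± 70.0 TPM and Ss18 at 165 ± 22.9 TPM (SD, n = 2), with 1430 bp of the exons used for Ss18 outside its counted span. Dpf2, the PHD finger subunit of canonical BAF in proliferating cells, was much lower at 9.20 and 7.74 TPM, a mean of 8.47 ± 1.03 TPM.

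Subunits associated with neuronal BAF were mostly low. Actl6b was at 0.334 and 0.104 TPM, Dpf1 at 1.47 and 0.717 TPM, and Dpf3 at 2.08 and 1.55 TPM. Ss18l1, which encodes CREST, was the exception among the 5 genes of that list, at 16.9 and 14.8 TPM, a mean of 15.8 ± 1.48 TPM (SD, n = 2). It was still well below Ss18 in both replicates. The accessory genes Bcl7a, Bcl7b, Bcl7c, Bcl11a and Bcl11b all had means under 5 TPM, between 0.583 TPM for Bcl11a and 4.73 TPM for Bcl11b. In the same order, 909, 91, 418, 565 and 188 bp of the exons used for them lie outside the counted span, which lowers these values.

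The subunits that define the sister complexes were measured as well. PBAF carries ARID2, polybromo and BRD7 in place of ARID1, and its 3 genes were all high, with Arid2 at 54.3 and 65.5 TPM, Pbrm1 at 130 and 161 TPM and Brd7 at 149 and 172 TPM. Arid2 was above Arid1a and Arid1b in both replicates, with ranges that did not overlap, and 1254 bp of the exons used for Brd7 lie outside its counted span. The non-canonical form, ncBAF, lacks SMARCB1, SMARCE1 and ARID subunits and is marked by BRD9 with GLTSCR1 or GLTSCR1L. Brd9 stood at 38.4 and 36.9 TPM, Bicral (listed as Gltscr1l) at 12.3 and 10.9 TPM and Bicra (listed as Gltscr1) at 3.09 and 2.02 TPM. Of the 20 genes of the whole list that could be tested between replicates, 14 passed the exact binomial test, 10 lower and 4 higher in replicate 2, beside the 60.8% of all genes that passed and the 45.7% that passed as lower. The 4 that were higher, Ss18, Arid2, Pbrm1 and Brd7, had GC contents of 41.8 to 47.2%, below the median of genes tested. Phf10, Bcl11a and Brd9 also lay below that median, at 42.4, 44.8 and 48.5%. They did not pass, with log2 ratios of −0.05, −0.49 and −0.14. With the GC trend taken off, the log2 ratio went from 0.20 to 0.23 for Ss18, from 0.18 to 0.34 for Arid2 and from 0.11 to 0.37 for Brd7, and from 0.22 to 0.11 for Pbrm1.

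**Figure D4:**
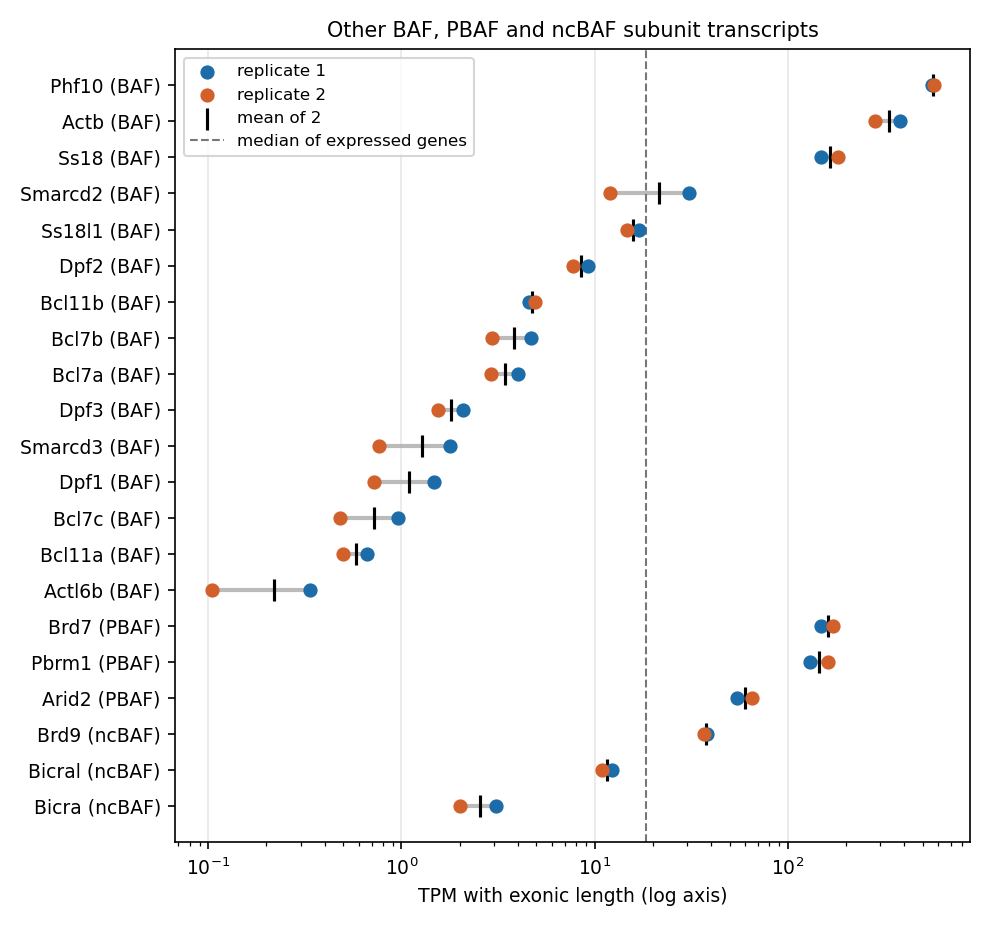
Levels of 21 other subunit genes of BAF, PBAF and ncBAF on a log axis of TPM with exonic length. Points are the 2 replicates and ticks their mean, with the median of expressed genes dashed, so that Phf10 and Actb lead on this scale, Ss18 and Brd7 lie close together, the 3 PBAF genes lie above the median, and Actl6b is lowest.

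The members are scattered over the autosomes, with Smarca4 and Smarcc1 sharing chromosome 9 and Smarcc2 and Smarcb1 sharing chromosome 10, and none is X-linked. RefSeq promoter windows of 300 bases (GRCm38.p6, mostly upstream of the start) were at hand for 9 of the 10 genes, 10 windows in all because Arid1a has 2. The number of CG dinucleotides per window ran from 21 for Actl6a to 48 for Smarcc2, with a median of 33, against a median of 14 and an upper quartile of 25 over 20921 windows of genes in the count table. The windows of Actl6a and 1 of the 2 of Arid1a, with 21 and 22, lay under that quartile. Among the lower members Smarca2 had 29, Smarcd1 35 and Arid1b 42, and among the higher ones Smarcb1 had 27 and Smarcc1 33. The count describes the letters of the window and says nothing of methylation or binding. The windows compared were those of all genes in the count table, and expressed genes alone were not compared.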

How the data were processed

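Polyadenylated RNA of 2 replicates was analysed. The authors deposited raw counts of read fragments per gene, which the file headers attribute to featureCounts 1.5.2, run in reverse-stranded mode over whole transcript spans on mm10, introns included. The processing notes of the submitters also list Bowtie2 (2.3.2) and STAR (2.4.2a), and the study's methods give alignment settings for its chromatin RNA libraries, with uniquely mapped reads kept, without saying whether these mRNA libraries were aligned likewise. Columns were matched to samples by name, which differs from the labels by 1 letter.

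TPM was computed from the counts with the exonic length of GENCODE M21 basic (GRCm38), matched by symbol or older symbol for 98.1% of genes, and averaged over replicates. Counting intervals cover sampling error only. Replicate counts were tested with a two-sided exact binomial test against the library totals, over genes with at least 10 counts, with Benjamini-Hochberg adjustment at 0.05. The test was checked on simulated counts that varied by sampling noise alone, apart from genes changed by set folds. They held no GC trend, so the check does not cover that trend in these libraries. GC trends were polynomials of degree 3. Tools were R 4.3.3, edgeR 4.0.16 (TMM factors), DESeq2 1.42.0 (size factors) and scipy 1.17.1. Alternatives changed length, scaling, filters, added counts and replicates.

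The members and lists were chosen with earlier results of these data known. All 10 members and all 21 other subunit genes are named, and of the marker lists those at 10 TPM or more where low levels were looked for and those at 0 counts where high levels were. Pou5f1, Dppa5a, Klf4, Zfp42, Utf1, Thy1, Col3a1, Postn, Tubb3, Pax6, Olig2 and Sox1 fall outside this rule and were named after their values were seen. With 2 samples of 1 group, no gene could be sought by likeness of pattern. The count test of edgeR was not used, since there is no contrast.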

Additional observations from a re-analysis of the deposited data

How the results depend on the processing

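Of 77 alternatives over 18 results, 47 kept the direction and the side of the threshold or stayed within the replicate spread. These 47 include counts of genes that changed little in number. Another 7 moved the value. With the sign kept, 3 lost a call and 8 gained one for members not called with total counts. The other 12 turned the sign of a value, called or not. Among these 12, with the GC trend removed, Smarca4 also lost its call and Smarce1 gained one. No paired analysis was possible because both libraries belong to a single group. The log2 ratio of Smarca4 over Smarca2 was 4.78 with span length, that of Smarcc1 over Smarcc2 was 2.31 with span length and 4.12 with CPM, and that of Arid1a over Arid1b was 2.09 with span length and −0.15 with CPM. Arid1a over Arid1b was −0.050 without replicate 1 and 0.58 without replicate 2, so its direction rests on replicate 1. The median percentile of the members was 63.1 with CPM, 64.3 with all counted genes and 31.2 with at least 5 TPM, where 9 members are left and fewer genes lie below them.

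The log2 ratio between replicates turned to 0.13 for Smarcc1 and 0.14 for Smarca2 with TMM factors, and to 0.18 and 0.19 with DESeq2 size factors. With the GC trend removed it turned to 0.0043 for Smarca4, 0.40 for Smarca2, 0.21 for Smarcc1, 0.30 for Smarcc2, −0.23 for Smarce1 and 0.18 for Arid1a. Smarca2 passed the test under none of these. Smarcc2 lost its call with TMM and DESeq2 factors (with TMM factors adjusted p = 0.432, exact binomial test, 0.0038 to 0.703 over its alternatives). Between 6 and 8 of the 10 members passed under the settings tried, as did 45.6 to 65.2% of all genes tested, but which members passed and their direction changed, from 6 lower to 4 lower and 4 higher with TMM or DESeq2 factors and to 2 lower and 5 higher with the GC trend removed. Among the members depth limits Smarca2 most, at 100 counts in all, and among the other subunits Actl6b, at 5.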
